A study of Mus musculus with 6 samples.

Results

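The proteasome genes were taken from the count table by symbol: every gene whose name begins with Psma, Psmb, Psmc, Psmd, Psme or Psmg followed by a digit, leaving out the immunoproteasome genes Psmb8, Psmb9 and Psmb10. This gave 45 of 21240 genes, of which 43 were among the 11080 genes with enough reads to be tested. The RNA came from NMuMG cells, an epithelial line from normal mouse mammary gland, grown with serum and insulin and then kept without both for 6 h. Cells of the group veh received the HCl and BSA vehicle and were taken after 2 h, cells of the group TGFb2h received TGFβ1 at 5 ng/ml for 2 h, and cells of the group TGFb12h received the same dose for 12 h, with 2 biological replicates in each group and 6 libraries in all. No vehicle library was taken at 12 h, so every difference between TGFb12h and veh also spans a longer time without serum. One line was studied, and nothing was sorted or deleted.

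The libraries held 14705886 to 23786993 counts, and Malat1, a nuclear noncoding RNA, took 4.14% to 5.34% of them in 5 libraries and 2.64% in TGFb2h replicate 2. Levels are given as TMM-normalized CPM, the counts of a gene scaled to a common library size. The epithelial keratins Krt8, Krt18 and Krt19 and the adhesion gene Cdh1 were abundant in vehicle, at mean levels of 1073, 2148, 1755 and 392 CPM. Krt7 was low at 1.45 CPM, and the epithelial genes Epcam, Cldn3 and Cldn7 were at or near 0, with at most 0.697 CPM in any library. Of the 13 leukocyte, endothelial and adipocyte markers looked for, Cd68 had the most reads, at 6.25 CPM in vehicle, and the others were at or under 1.85 CPM in all 6 libraries. Of the markers, Krt8 rose at 2 h, with a log2FC of 0.68 (SE 0.11, adjusted p = 0.00874). At 12 h Krt7, Krt8 and Krt18 rose, with log2FC of 1.60, 1.63 and 1.52 (SE 0.38, 0.11 and 0.13, adjusted p = 0.0141, 0.000114 and 0.000275), and Krt19 fell by 1.95 on the log2 scale (SE 0.13, adjusted p = 0.000103). The endothelial gene Cdh5, under the filter, went from 1 and 2 counts in vehicle to 6 and 5 at 2 h and 39 and 36 at 12 h, while the endothelial genes Pecam1, Kdr and Tek had 0 to 2 counts in every library. The part of these markers in the results was not tested.

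The proteasome is the protease that degrades proteins tagged with ubiquitin. Its 20S core is a barrel of alpha rings, which form the gate, around beta rings, some of whose subunits cut peptide bonds. The 19S regulatory particle sits on the core: its base, with a ring of ATPases, unfolds the substrate, and its lid removes the ubiquitin chain. Activators of the Psme genes can take the place of the 19S particle, and dedicated chaperones assemble each part. The transcription factors NRF1 and NRF2 are known to drive these genes together through antioxidant response elements, which is why the members are set beside the genes of that pathway.

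By role, the symbol rule took 8 genes of the alpha ring, 8 of the beta ring, 6 ATPases of the 19S base, 3 other base subunits, 8 lid subunits, 4 activators and 7 assembly chaperones. It also took Psmc3ip, which encodes a meiotic recombination factor and not a subunit of the proteasome. Psma8, an alpha subunit of the testis, and Psmb11, a beta subunit of the thymus, had 0 counts in all 6 libraries and were not tested. A count of 0 allows a level of up to 0.131 to 0.191 CPM, that of 3 counts, depending on the library.

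The 250 bases before the start of transcription are shown for the 2 members with the largest tested rise, Psmd8 and Psme3, and for Psmb5, the chymotrypsin-like catalytic subunit, whose window held 2 of the motifs searched. The sequences are those of RefSeq on GRCm38.p6, a later build than the one the counts were made on, read 5′ to 3′ on the strand of the gene, with motif matches in capitals.
Psmd8, chr7:29180674-29180923, minus strand: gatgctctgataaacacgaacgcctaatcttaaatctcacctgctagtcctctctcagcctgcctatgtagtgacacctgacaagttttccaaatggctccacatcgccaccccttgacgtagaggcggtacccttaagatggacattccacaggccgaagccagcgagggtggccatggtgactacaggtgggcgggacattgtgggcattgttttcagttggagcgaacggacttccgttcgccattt
Psme3, chr11:101315963-101316212, plus strand: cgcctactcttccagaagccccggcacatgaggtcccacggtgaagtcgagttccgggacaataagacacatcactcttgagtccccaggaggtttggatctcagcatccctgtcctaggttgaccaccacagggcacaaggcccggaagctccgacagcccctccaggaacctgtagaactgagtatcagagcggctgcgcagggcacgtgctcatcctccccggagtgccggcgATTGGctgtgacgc
Psmb5, chr14:54617996-54618245, minus strand: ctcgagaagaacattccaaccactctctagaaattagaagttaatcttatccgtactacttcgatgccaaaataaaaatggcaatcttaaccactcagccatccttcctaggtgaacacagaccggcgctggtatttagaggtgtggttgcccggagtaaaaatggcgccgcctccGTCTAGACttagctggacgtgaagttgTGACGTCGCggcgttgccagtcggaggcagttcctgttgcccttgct
The motifs were searched on both strands: the antioxidant response element TGACNNNGC, the AP-1 site TGANTCA, the SMAD palindrome GTCTAGAC and the CCAAT box, and a single stretch can match both of the first 2. Psmd8 had no match to any of them. The capitals in Psme3 are a CCAAT box on the opposite strand, 14 to 10 bases before the start. In Psmb5 they are the SMAD palindrome, 74 to 67 bases before the start, and an antioxidant response element, 47 to 39 bases before it.

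Windows were found for 37 of the 45 members, in 40 windows since some genes have more than 1 start. The antioxidant response element was in 5 windows, of Psmb5, Psmb6, Psmc6, Psmd12 and Psmd9, which is 12.5% of the windows against 10.2% of all 32851 mouse windows of the same length. CCAAT boxes were in 35.0% of the windows against 33.8% of all, the AP-1 site in Psmd9 alone (2.5% against 6.75%) and the SMAD palindrome in Psmb5 alone (2.5% against 0.167%). A match is a run of letters and not a shown site.

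After 2 h of TGFβ, none of the 43 tested members changed by edgeR's quasi-likelihood test at an adjusted p under 0.05, where 15.2% of all genes tested did. At an unadjusted p under 0.05 there were 2 members, against 29.7% of all genes. DESeq2 and limma-voom each called 1, Psmd3, against 18.9% and 15.2% of all genes. Across the members, 32 of 43 (74.4%) had a log2FC above 0, against 48.9% of all genes, and their median log2FC was 0.15 against -0.01 over all genes. When 1 library was left out, the number above 0 ran from 19 (without TGFb2h replicate 2) to 34 (without veh replicate 2). The members ranged from -0.25 (Psme2, a subunit of the 11S activator) to 0.48 (Psma3, an alpha subunit). Of their coding stretches of 50 bases, 69.6% (Psme2) and 85.7% (Psma3) occur elsewhere in the genome, so both values are uncertain. In 10 members both 2 h libraries lay above both vehicle libraries (23.3%, against 28.3% of all genes) and in 5 both lay below (11.6%, against 27.5%). Psmd3, which encodes the lid subunit Rpn3 and was picked out here after its values were seen, came closest to the threshold. It stood at 125 and 149 CPM in vehicle, 178 and 199 CPM at 2 h and 174 and 170 CPM at 12 h. The treated libraries were all above the vehicle libraries, with a log2FC of 0.46 at 2 h (SE 0.12, adjusted p = 0.0503) and 0.33 at 12 h (SE 0.12, adjusted p = 0.0692).

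After 12 h, 4 members rose and none fell: Psmd8 and Psmd12 of the lid, the activator Psme3 and the alpha subunit Psma2. That is 9.3% of the tested members, against 21.8% of all genes tested that rose and 21.5% that fell. At an unadjusted p under 0.05 there were 13 members, against 51.6% of all genes. The fold changes were small: none of the 43 reached an absolute log2FC above 1 with an adjusted p under 0.05, while 19.6% of all genes did, and 3 members passed 0.5 in absolute log2FC. Yet 33 of 43 (76.7%) had a log2FC above 0, against 51.2% of all genes, with a median of 0.24 against 0.02. In 27 members (62.8%, against 39.5% of all genes) both 12 h libraries lay above both vehicle libraries, and in 3 (6.98%, against 37.2%), Psmg1, Psmg4 and Psmc3ip, both lay below. The 2 h and 12 h comparisons share their vehicle libraries. More RNA of these genes in each cell and more cells that express them cannot be told apart in such bulk RNA.

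Of the 4 calls, those of Psmd12 and Psma2 were lost under 2 other scalings of the libraries. With total counts in place of TMM factors, 2 members rose (Psmd8 and Psme3) and 1 fell (Psmg1), and the same 3 were called with upper-quartile factors, where 16.5% and 18.6% of all genes rose and 44.0% and 43.5% were called. Total counts moved the median of all genes to -0.12 at 2 h and -0.11 at 12 h, and the members' median to 0.04 and 0.11. Relative to the median of all genes the members' median was then 0.157 at 2 h and 0.224 at 12 h, against 0.156 and 0.225 with TMM. With total counts 25 of 43 members lay above 0 at 2 h and 26 of 43 at 12 h. By DESeq2, 9 members rose at 12 h, where 21.9% of all genes rose. With the replicate number added to the fit as a block, 18 members were called at 12 h, where 55.3% of all genes were. Of these, 17 were higher, 39.5% of the tested members, against 27.8% of all genes. The labels do not say that a number marks a shared culture or day. A fit of only the 2 groups compared called 13, with 12 higher and Psmc3ip lower, where 49.3% of all genes were called and 23.9% were higher, and leaving out 1 library in turn gave 1 to 13 calls, the fewest without veh replicate 1 or TGFb12h replicate 2 (30.1% and 25.7% of all genes called) and the most without either TGFb2h library (48.8% and 49.1%).

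**Figure D1:**
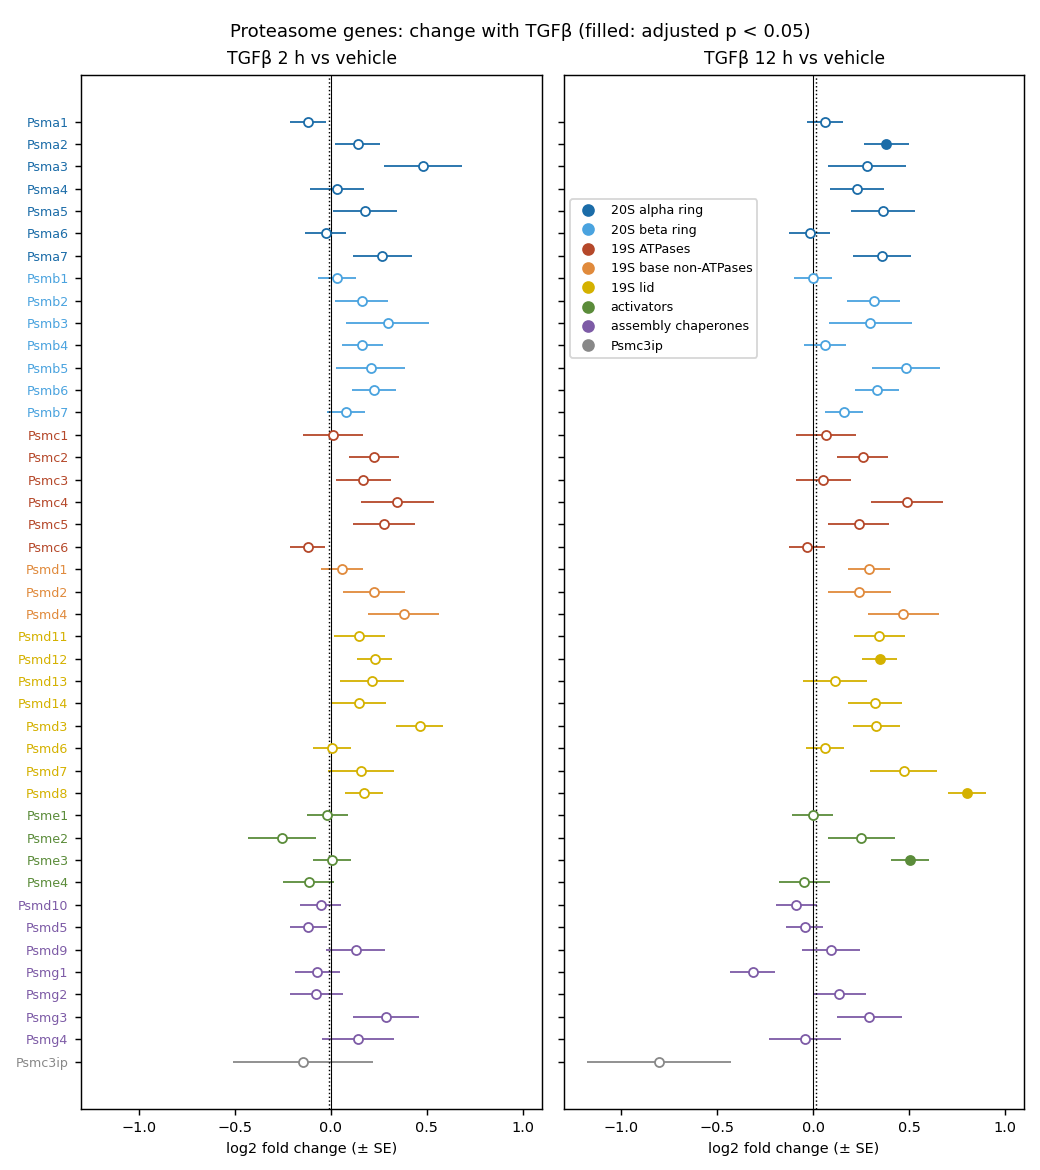
Log2 fold change (x axis, with SE bars) of the 43 tested members (y axis, coloured by role) after 2 h and 12 h of TGFβ against vehicle, filled where the adjusted p was under 0.05; the dotted line is the median of all genes. No point is filled at 2 h, and Psma2, Psmd12, Psmd8 and Psme3 are filled at 12 h, with Psmd8 farthest to the right at 0.80 and Psmc3ip farthest to the left at -0.80.

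Summed over the 45 members, the level was 4990 and 5478 CPM in the vehicle libraries, 5342 and 6114 CPM at 2 h and 6016 and 6223 CPM at 12 h. Both 12 h libraries stood above both vehicle libraries, whereas the 2 h and vehicle libraries overlapped. Within each replicate number the 2 h library stood above the vehicle library. The labels do not say that a number marks a shared culture or day. The mean was 16.9% higher at 12 h and 9.44% higher at 2 h, and the sum is a description with no test. As a log2 ratio, the sum at 2 h was 0.130, and it was 0.0295 without TGFb2h replicate 2 and 0.224 without TGFb2h replicate 1. At 12 h it was 0.226, and 0.160 to 0.294 when 1 library was left out. As a share of all counts, without TMM factors, the members took 0.522% and 0.585% in vehicle and 0.581% and 0.602% at 12 h, and on that scale the groups overlapped.

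The summed differences from vehicle varied between roles, and the roles were not tested against each other. Of the 7 roles, the lid had the largest difference at 12 h, 31.6% above vehicle, from 926 and 1027 CPM in vehicle to 1058 and 1195 CPM at 2 h and 1289 and 1279 CPM at 12 h. Psmd8 made up 145 of the 308 CPM of that difference, and the other 7 lid genes were 20.9% above vehicle, under the 23.9% of the base subunits that follow. Without Psmd4, their own member of largest rise, those base subunits were 19.9% above vehicle. The base subunits that are not ATPases were 23.9% higher at 12 h, the alpha ring 17.7%, the ATPases 11.4% and the beta ring 10.9%, each with both 12 h libraries above both vehicle libraries. The activators were 5.66% higher and the assembly chaperones 1.86% lower, and in both the 12 h and vehicle libraries overlapped. Leaving out 1 library gave log2 ratios of -0.000409 to 0.164 for the activators and -0.0816 to 0.0253 for the chaperones. Single libraries weighed on these sums: the log2 ratio at 12 h was 0.156 for the ATPases, with 0.0448 without veh replicate 1 and 0.277 without veh replicate 2, and 0.309 for the other base subunits, with 0.183 without veh replicate 1. That of the beta ring was 0.150, with 0.0916 without TGFb12h replicate 2. That of the lid, 0.396, ran from 0.323 to 0.472, and that of the alpha ring, 0.236, from 0.191 to 0.279. As shares of all counts, the 12 h libraries stayed above vehicle for the lid, the other base subunits and the alpha ring and overlapped with vehicle for the ATPases and the beta ring. These sums follow the most abundant members of each role.

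**Figure D2:**
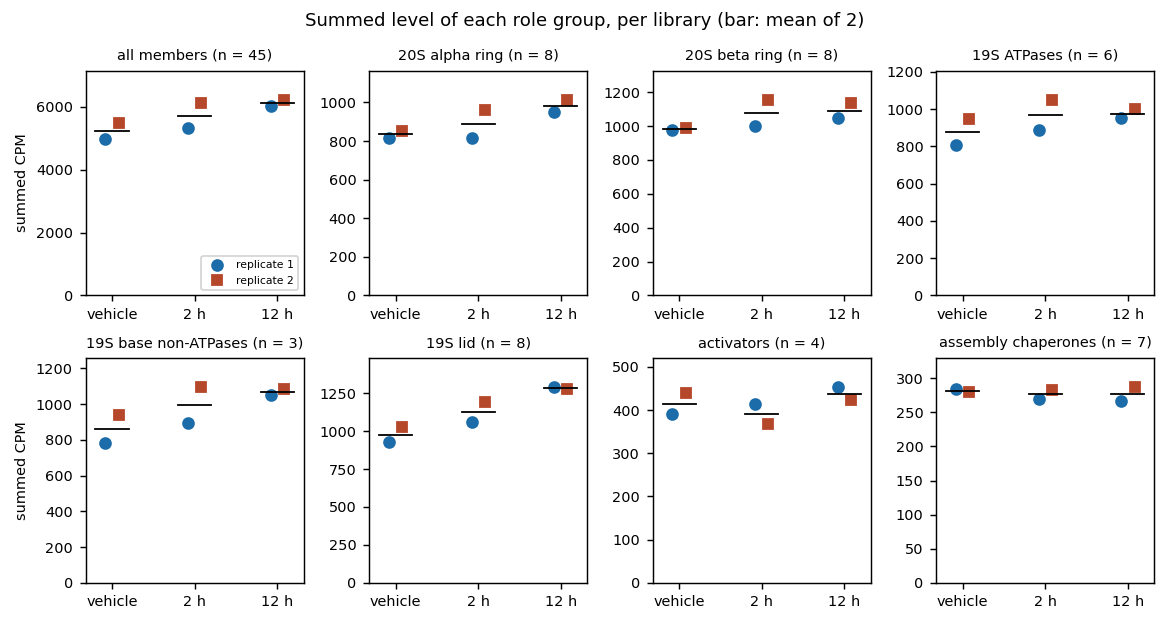
Summed TMM-normalized CPM (y axis) in each library of the 3 groups (x axis) for all members and for each role, with circles for replicate 1, squares for replicate 2 and a bar for the mean of 2. The lid is highest at 12 h, at 1289 and 1279 CPM against 926 and 1027 CPM in vehicle, and the chaperones stay between 266 and 287 CPM.

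The replicates of a group also differed in these genes. In replicate 2, 31 of 43 members were higher than in replicate 1 of vehicle, 36 of 43 at 2 h and 32 of 43 at 12 h, with median log2 differences of 0.13, 0.24 and 0.08, where the medians over all genes were 0.002, 0.006 and 0.033. The median log2FC at 2 h was 0.24 without TGFb2h replicate 1 and -0.005 without TGFb2h replicate 2. It was 0.046 without veh replicate 1 and 0.179 without veh replicate 2. At 12 h it was 0.15 without veh replicate 1 and 0.33 without veh replicate 2, and 0.26 and 0.14 without TGFb12h replicates 1 and 2. Malat1 took a smaller share of the counts in replicate 2 than in replicate 1 of vehicle (4.46% and 5.22%), at 2 h (2.64% and 4.14%) and at 12 h (4.68% and 5.34%), and its part in these differences was not tested. Replicate 2 at 2 h thus stood above replicate 1 by more than the median change at 2 h.

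In the lid, Psmd8 had the largest rise of all members. Psmd8 (Entrez 57296, chr7:29959207-29965692 of mm9, minus strand) encodes Rpn12, a lid subunit that joins late in assembly. It stood at 202 and 191 CPM in vehicle, 221 and 221 CPM at 2 h and 356 and 327 CPM at 12 h. The 12 h libraries were far above all others, and the 2 h libraries lay slightly above vehicle. The log2FC was 0.80 at 12 h (SE 0.099, adjusted p = 0.00105), 1.74-fold, and 0.17 at 2 h (SE 0.099, adjusted p = 0.302). Psmd8 was the only member called at 12 h under all 15 alternative settings, with a log2FC of 0.67 to 0.85 and adjusted p-values from 2.30e-11 to 0.0167.

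Psmd12 (Entrez 66997, chr11:107340798-107365676, plus strand), which encodes the lid subunit Rpn5, stood at 124 and 128 CPM in vehicle, 147 and 149 CPM at 2 h and 162 and 158 CPM at 12 h. The 3 groups did not overlap. The log2FC was 0.35 at 12 h (SE 0.091, adjusted p = 0.0215) and 0.23 at 2 h (SE 0.091, adjusted p = 0.153). The call at 12 h was lost without any 1 of the 4 libraries compared, with adjusted p-values of 0.0967 to 0.133, and with total counts (0.109) or upper-quartile factors (0.0538). Psmd6, which encodes the lid subunit Rpn7, had the lowest log2FC of the lid at 12 h. Its level was 107 and 118 CPM in vehicle, 111 and 116 CPM at 2 h and 115 and 120 CPM at 12 h, with overlapping groups and a log2FC of 0.06 (SE 0.099, adjusted p = 0.639). The other 4 lid subunits lay between 0.11 (Psmd13) and 0.47 (Psmd7) at 12 h. All 8 lid genes had a log2FC above 0 at both times, except that Psmd6 turned negative with other scalings and Psmd13 at 12 h with total counts, and the median was 0.34 at 12 h against 0.02 over all genes.

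Among the base subunits that are not ATPases, none passed the test. Psmd4, which encodes a ubiquitin receptor of the base, was at 179 and 191 CPM in vehicle, 194 and 287 CPM at 2 h and 247 and 265 CPM at 12 h. The 2 libraries at 2 h differed widely, and both 12 h libraries were above vehicle. The log2FC of Psmd4 at 12 h was 0.47 (SE 0.18, adjusted p = 0.0811), and it passed the test under 5 of 15 alternative settings, DESeq2 among them (adjusted p = 0.0481). Psmd2, which encodes the large scaffold subunit Rpn1 and was the most abundant member by CPM, was at 340 and 442 CPM in vehicle, 408 and 505 CPM at 2 h and 452 and 471 CPM at 12 h. Vehicle replicate 2 of Psmd2 came close to the 12 h libraries, and the log2FC was 0.24 (SE 0.16, adjusted p = 0.276), with 0.0598 to 0.437 when 1 library was left out. Psmd1, the other large scaffold, had a log2FC of 0.29 (SE 0.11, adjusted p = 0.0716), and was called with DESeq2 and with the replicate block.

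None of the 6 ATPases passed the test either. The highest was Psmc4, at 80.3 and 111 CPM in vehicle, 106 and 138 CPM at 2 h and 133 and 136 CPM at 12 h, with a log2FC of 0.49 at 12 h (SE 0.19, adjusted p = 0.0776). That of Psmc4 ran from 0.267 to 0.739 when 1 library was left out, and it passed the test under 6 of 15 alternative settings, DESeq2 among them (adjusted p = 0.0480). The lowest was Psmc6, at 159 and 162 CPM in vehicle, 151 and 144 CPM at 2 h and 161 and 153 CPM at 12 h, with a log2FC of -0.03 (SE 0.093, adjusted p = 0.814). In Psmc4 both 12 h libraries were above both vehicle libraries. In Psmc6 the 12 h and vehicle libraries overlapped, and both 2 h libraries lay below both vehicle libraries. The ATPases act as 1 hexamer, with 1 copy of each.

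In the alpha ring, 1 of 7 tested genes rose. Psma2 (Entrez 19166, chr13:14705521-14719674, plus strand) was at 188 and 178 CPM in vehicle, 184 and 220 CPM at 2 h and 232 and 245 CPM at 12 h. Both 12 h libraries were above all others, and of the 2 h libraries 1 lay within the vehicle range and the other above it. The log2FC was 0.38 at 12 h (SE 0.12, adjusted p = 0.0380) and 0.14 at 2 h (SE 0.12, adjusted p = 0.468). Without any 1 of the 4 libraries compared, the adjusted p at 12 h was 0.112 to 0.183, and with total counts or upper-quartile factors it was 0.149 or 0.0853. Psma6 was the lowest of the alpha ring at 12 h. It was at 105 and 116 CPM in vehicle, 103 and 114 CPM at 2 h and 107 and 111 CPM at 12 h, with a log2FC of -0.02 (SE 0.11, adjusted p = 0.907). The other 5 lay between 0.06 (Psma1) and 0.36 (Psma5 and Psma7).

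In the beta ring, where the proteolytic sites are, no gene passed the test at 12 h. Psmb5, the chymotrypsin-like subunit shown above, was at 14.7 and 17.5 CPM in vehicle, 16.2 and 20.8 CPM at 2 h and 21.3 and 23.6 CPM at 12 h. Both 12 h libraries were above the others, with a log2FC of 0.48 (SE 0.18, adjusted p = 0.0665), and Psmb5 passed the test under 4 of 15 alternative settings. Psmb6, the caspase-like subunit, and Psmb7, the trypsin-like subunit, had log2FC of 0.33 (SE 0.12, adjusted p = 0.0567) and 0.16 (SE 0.099, adjusted p = 0.240). Among the alternatives, DESeq2, the replicate block and a fit of only the groups compared called Psmb6 at 12 h. Psmb1, a noncatalytic subunit, was at 279 and 285 CPM in vehicle, 281 and 297 CPM at 2 h and 269 and 295 CPM at 12 h. Its groups overlapped, and its log2FC at 12 h was -0.0003 (SE 0.10, adjusted p = 0.998).

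Of the 4 activators, Psme3 rose at 12 h. Psme3 (Entrez 19192, chr11:101177527-101184851, plus strand) encodes PA28γ, a nuclear activator of the core that works without ATP. It stood at 69.1 and 77.0 CPM in vehicle, 73.5 and 73.3 CPM at 2 h and 101 and 106 CPM at 12 h. Vehicle and 2 h overlapped, and both 12 h libraries were above them. The log2FC was 0.50 at 12 h (SE 0.10, adjusted p = 0.00752), 1.42-fold, and 0.01 at 2 h (SE 0.10, adjusted p = 0.973). The adjusted p at 12 h rose to 0.0645 without veh replicate 1 and to 0.0627 without TGFb12h replicate 2, with a log2FC of 0.42 and 0.46.

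The other activators did not pass the test. Psme1 and Psme2 encode the interferon-inducible PA28αβ, and their log2FC at 12 h was -0.0020 (SE 0.11, adjusted p = 0.990) and 0.25 (SE 0.18, adjusted p = 0.292). Psme4, which encodes the activator PA200, was at 264 and 304 CPM in vehicle, 283 and 242 CPM at 2 h and 292 and 257 CPM at 12 h. The groups of Psme4 overlapped, with a log2FC of -0.05 (SE 0.13, adjusted p = 0.801).

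The 7 assembly chaperones had a median log2FC of -0.04 at 12 h, with 3 of 7 above 0 and none past the test. Psmg3 was the highest, at 15.4 and 16.6 CPM in vehicle, 18.1 and 21.0 CPM at 2 h and 17.3 and 21.9 CPM at 12 h, with a log2FC of 0.29 at 12 h (SE 0.17, adjusted p = 0.212) that ran from 0.102 to 0.442 when 1 library was left out. Psmg1, a chaperone of the alpha ring, was the lowest, at 25.5 and 24.8 CPM in vehicle, 23.6 and 24.4 CPM at 2 h and 19.9 and 20.5 CPM at 12 h. Both 12 h libraries of Psmg1 were below all others, with a log2FC of -0.32 (SE 0.12, adjusted p = 0.0705). It passed the test with total counts (-0.44, adjusted p = 0.0263) and with upper-quartile factors (-0.39, adjusted p = 0.0371). Psmc3ip, the gene that is no subunit, was at 4.29 and 6.49 CPM in vehicle, 3.39 and 6.35 CPM at 2 h and 2.74 and 3.44 CPM at 12 h, with a log2FC of -0.80 (SE 0.37, adjusted p = 0.128) that ran from -1.08 to -0.481 when 1 library was left out.

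**Figure D3:**
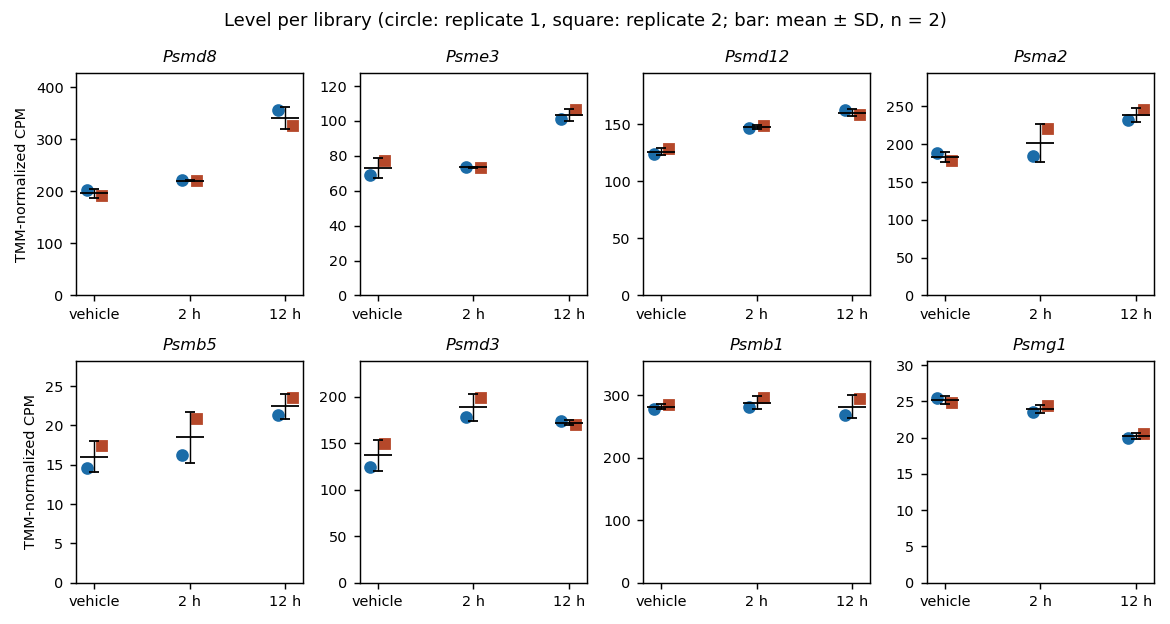
TMM-normalized CPM (y axis, from 0) of 8 members in each library of the 3 groups (x axis), with circles for replicate 1, squares for replicate 2 and bars for mean and SD of 2. Psmd8 and Psme3 are highest at 12 h (356 and 327 CPM, 101 and 106 CPM), Psmd3 is already higher at 2 h (178 and 199 CPM), Psmb1 overlaps throughout, and Psmg1 is lowest at 12 h (19.9 and 20.5 CPM).

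Between 2 h and 12 h of TGFβ, 2 members rose, Psmd8 (log2FC 0.63, SE 0.099, adjusted p = 0.00422) and Psme3 (0.50, SE 0.10, adjusted p = 0.0107), and none fell by edgeR, where 34.1% of all genes were called (15.2% rose and 18.9% fell). Psmd8 kept this call under all 15 alternative settings. Psme3 lost it without TGFb12h replicate 1 (adjusted p = 0.0622) or without TGFb12h replicate 2 (adjusted p = 0.0805). No other member passed the test, and 30 of 43 had a log2FC above 0, against 50.6% of all genes, with a median of 0.07 against 0.01 over all genes. Without TGFb2h replicate 1, 20 of 43 lay above 0 and the median was -0.0106. Without TGFb2h replicate 2, 37 of 43 lay above 0 and the median was 0.138.

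Levels per length show how evenly the genes of a fixed complex were covered. Each subunit of the 19S particle is present once, and per kb of the GENCODE transcript with the longest coding sequence its genes ran in vehicle from 15.9 CPM per kb (Psmd11) to 145 CPM per kb (Psmd4), a ratio of 9.08. The 14 tested genes of the 20S core ran from 5.17 CPM per kb (Psma3) to 272 CPM per kb (Psmb1), a ratio of 52.7. These values depend on the transcript chosen: that of Psma3 has 2846 bases, 768 of them coding, and that of Psmb1 1036, 723 of them coding. The authors kept reads of 50 bases that mapped to 1 place, so the share of each coding sequence whose stretches of 50 bases also occur elsewhere in the genome was computed. That share was 0 in 25 of the 43 tested members. It was at least 25% in 8: Psma3 (85.7%), Psma5 (79.2%), Psmb3 (70.8%), Psme2 (69.6%), Psmb5 (57.0%), Psma4 (38.8%), Psmd11 (32.2%) and Psmd2 (25.7%).

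The 5 core genes at or above 25% had 5.17 to 97.3 CPM per kb, with a median of 32.6, and the other 9 had 68.7 to 272 CPM per kb, with a median of 156. In the 19S particle, the 15 genes under 25% ran from 50.2 to 145 CPM per kb, a ratio of 2.88. The levels and changes of the 8 genes at or above 25% are uncertain, since a read from such a stretch has more than 1 place to map. The part of the copies in the low levels was not tested. Of the 4 members called at 12 h, Psmd8 and Psme3 had no such stretch, Psmd12 0.08% and Psma2 15.5%.

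**Figure D4:**
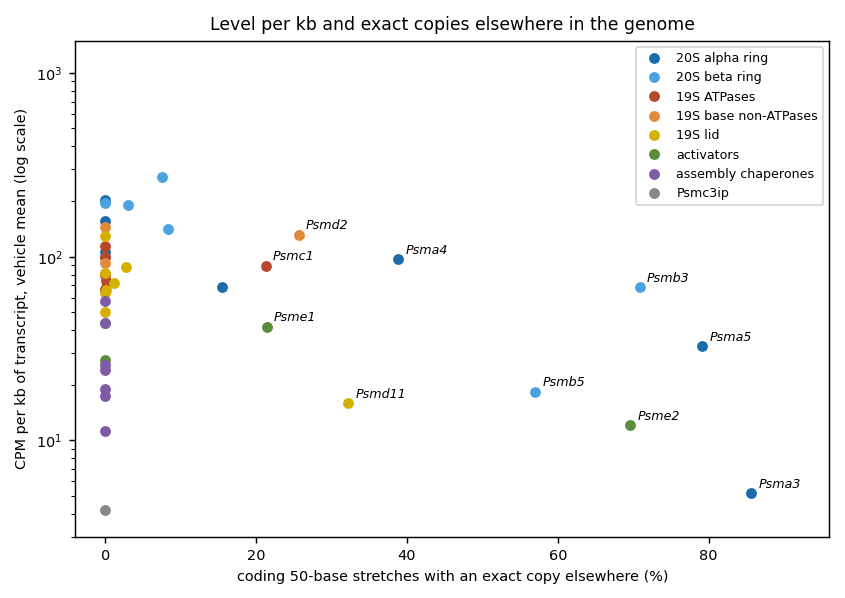
Vehicle mean level in CPM per kb of transcript (y axis, log scale) against the percent of coding 50-base stretches with an exact copy elsewhere in the genome (x axis), 1 point for each of the 43 tested members, coloured by role. Psma3, at 85.7%, has 5.17 CPM per kb, and core genes under 25% lie at 68.7 to 272 CPM per kb.

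The genes around the proteasome were taken from 5 lists that hold 42 genes, of which 39 were tested. At 2 h, 4 rose and 1 fell, and at 12 h 6 rose and 4 fell. That is 10.3% and 2.56% at 2 h against 9.91% and 5.25% of all genes, and 15.4% and 10.3% at 12 h against 21.8% and 21.5%.

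The list of NRF1 and its partners had the most calls, with 3 of 10 genes up and 1 down at 2 h and 3 up and 2 down at 12 h. Nfe2l2, which encodes NRF2, was at 289 and 266 CPM in vehicle, 144 and 126 CPM at 2 h and 113 and 119 CPM at 12 h. All 4 treated libraries were below vehicle, and the log2FC was -1.04 at 2 h (SE 0.11, adjusted p = 0.00208) and -1.26 at 12 h (SE 0.11, adjusted p = 0.000284). Ddi2, which encodes the protease that cuts NRF1 into its active form, was at 17.4 and 18.5 CPM in vehicle, 51.1 and 51.0 CPM at 2 h and 40.7 and 41.3 CPM at 12 h. Its treated libraries were all above vehicle, with a log2FC of 1.51 (SE 0.11, adjusted p = 0.000502) and 1.19 (SE 0.11, adjusted p = 0.000286).

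Ngly1, which encodes the glycanase that acts on NRF1 before that cut, was at 34.8 and 31.3 CPM in vehicle, 26.8 and 20.3 CPM at 2 h and 15.1 and 12.6 CPM at 12 h. The 3 groups of Ngly1 did not overlap, and its log2FC was -0.49 at 2 h (SE 0.18, adjusted p = 0.121) and -1.25 at 12 h (SE 0.18, adjusted p = 0.00200). The value of Ngly1 at 2 h ran from -0.72 to -0.305 when 1 library was left out, and it passed the test without TGFb2h replicate 1 (adjusted p = 0.0377). Maff, a small MAF protein that pairs with NRF factors, rose at 12 h, from 24.1 and 19.2 CPM in vehicle to 62.5 and 51.3 CPM (log2FC 1.39, SE 0.23, adjusted p = 0.00325). At 2 h Maff was at 37.1 and 24.7 CPM (log2FC 0.51, SE 0.23, adjusted p = 0.191). Nfe2l1, which encodes NRF1 itself, was at 277 and 303 CPM in vehicle, 276 and 271 CPM at 2 h and 232 and 244 CPM at 12 h. Its 12 h libraries were below vehicle, and its log2FC of -0.28 did not pass the test (SE 0.099, adjusted p = 0.0574). Nfe2l1 was called as lower at 12 h under 6 of 15 alternative settings, among them total counts (adjusted p = 0.0171), upper-quartile factors (0.0254) and DESeq2 (0.0203). The other calls on this list, named after their values were seen, were Bach1 (0.79) and Mafg (0.49) at 2 h and Mafk (0.95) at 12 h, all upward.

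Among cofactors of the proteasome, Zfand2a, which encodes AIRAP, a stress-induced protein that binds the 19S particle, was at 103 and 82.8 CPM in vehicle, 215 and 169 CPM at 2 h and 153 and 146 CPM at 12 h. All 4 treated libraries were above vehicle, with a log2FC of 1.04 at 2 h (SE 0.16, adjusted p = 0.00783) and 0.68 at 12 h (SE 0.16, adjusted p = 0.0138). AI314180, known as Ecpas, which binds the 26S proteasome, fell at 12 h by 0.34 on the log2 scale (SE 0.093, adjusted p = 0.0258), and without any 1 of the 4 libraries compared its adjusted p was 0.0771 to 0.149. The call of Zfand2a at 2 h was lost without veh replicate 2 (adjusted p = 0.0523), and that at 12 h without veh replicate 2, TGFb12h replicate 1 or TGFb12h replicate 2 (adjusted p = 0.0834, 0.0938 and 0.0760). Pomp, the chaperone of the beta ring, was at 103 and 102 CPM in vehicle and 108 and 112 CPM at 12 h, with a log2FC of 0.10 (SE 0.091, adjusted p = 0.420).

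Of the ubiquitin genes, Ubb, a polyubiquitin gene, had a log2FC at 12 h of 0.05 (SE 0.14, adjusted p = 0.806). Uba1, the main ubiquitin-activating enzyme, rose at 12 h, from 478 and 527 CPM to 628 and 684 CPM (log2FC 0.38, SE 0.12, adjusted p = 0.0382). Of the shuttles that carry ubiquitinated proteins to the proteasome, Ubqln2 was at 133 and 91.6 CPM in vehicle, 134 and 134 CPM at 2 h and 32.0 and 22.5 CPM at 12 h. It fell at 12 h by 2.04 on the log2 scale (SE 0.23, adjusted p = 0.000714). Its paralog Ubqln1 rose, with a log2FC of 0.38 (SE 0.12, adjusted p = 0.0462). The calls of Uba1 and Ubqln1 at 12 h were lost without any 1 of the 4 libraries compared, with adjusted p-values of 0.0833 to 0.205 and 0.109 to 0.214. They were also lost with total counts (adjusted p = 0.156 and 0.117) and upper-quartile factors (0.0869 and 0.0799), and that of Ubqln1 with DESeq2 size factors (0.0528) and with no filter (0.0524).

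The immunoproteasome genes, which replace the catalytic beta subunits in immune cells and under interferon, were left out of the symbol rule. Psmb8 had 0 or 1 count and Psmb9 0 to 5 counts in each library, under the filter. Psmb10 was at 10.5 and 12.2 CPM in vehicle, 11.8 and 12.7 CPM at 2 h and 7.53 and 8.72 CPM at 12 h. Both 12 h libraries were below all others, with a log2FC of -0.49 against vehicle (SE 0.17, adjusted p = 0.0609) and -0.59 against 2 h (SE 0.17, adjusted p = 0.0375). The call against 2 h was lost without any 1 of the 6 libraries, with adjusted p-values of 0.0551 to 0.190, and in a fit of only those 2 groups (adjusted p = 0.0593).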

How the data were processed

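Stranded total RNA of 3 groups with 2 libraries each was sequenced in single reads of 50 bases. Per the paper's methods, the authors mapped reads to mm9 with subjunc, dropped duplicates and reads with several places, and had featureCounts add up the rest by gene over its exons on the matching strand. The deposited values are raw counts by gene. The submitters' processing notes list SAMtools 0.1.19, limma 3.34.9 and edgeR 3.20.9. Psmb1 had 4479 to 6182 counts in a library on 1036 exon bases, more than 1 read for each base at which a read can start. The deposited counts therefore still held duplicates. Unique mapping lowers the counts of genes with copies.

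Counts were tested in R 4.3.3 with edgeR 4.0.16 by the quasi-likelihood test on TMM-scaled libraries. A single fit took all 6 libraries, and a gene was tested where 2 or more libraries reached 2 CPM. P-values are two-sided and were adjusted by the Benjamini-Hochberg method over all genes tested in a contrast, and a gene was called at an adjusted p under 0.05. The SE of a log2FC is its size divided by the square root of F. CPM is the count divided by the TMM-scaled library size, on the usual scale, and differences between replicates are of log2(CPM + 0.25). Libraries held 14705886 to 23786993 counts. The labels do not say whether replicates came from separate cultures on separate days, so the p-values measure the spread between these libraries. The test was tried on simulated data: among 10930 genes, it called 92.9% of 99 given a log2 change of 1.5 at 12 h and 40.8% of 98 given 0.75.

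Members with a call in any contrast, the highest and lowest of each role at 12 h and those without counts are described in full. From the lists around the proteasome, up to 4 called genes of a list are described, with Nfe2l1, Pomp, Ubb and the immunoproteasome genes, and 1 further gene of that rule is not reported here. The members and lists were chosen with earlier results of these data known, so their pattern is no independent evidence. Sem1 and Ufd1 were matched through RefSeq synonyms, and Paaf1 was not analysed here. Positions, transcript lengths and exact copies of coding stretches came from GENCODE and the genome on NCBIM37, the same build as mm9, read with Python 3.11.15, numpy 2.4.6 and pandas 2.3.3. Promoter windows were available for 37 of 45 members. DESeq2 1.42.0, limma-voom 3.58.1, 3 other scalings, 2 other filters, a fit of only the groups compared, the replicate block and leaving out each library were tried as alternatives.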

Additional observations from a re-analysis of the deposited data

Results flagged for a closer look

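Each of the following genes had a log2FC against vehicle at 12 h that differed from its log2FC at 2 h, by the direct test of 12 h against 2 h with edgeR. Both comparisons share the vehicle libraries, which drop out of the difference, and no 12 h vehicle library was made.

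Among the members these were Psmd8, higher at 12 h by a log2FC of 0.628 (SE 0.099, adjusted p = 0.00422), and Psme3, higher by 0.497 (SE 0.10, adjusted p = 0.0107). Both 12 h libraries of each gene were above both 2 h libraries. The call of Psme3 was lost without TGFb12h replicate 1 (adjusted p = 0.0622) or TGFb12h replicate 2 (adjusted p = 0.0805).

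Among the 39 genes around the proteasome, 3 were higher and 3 lower at 12 h than at 2 h, 7.69% each way against 15.2% and 18.9% of all genes tested. The shuttle gene Ubqln2 had a log2FC of -2.30 between 2 h and 12 h (SE 0.23, adjusted p = 0.0009), with 134 and 134 CPM at 2 h and 32.0 and 22.5 CPM at 12 h. Ngly1, the glycanase gene, had -0.764 (SE 0.18, adjusted p = 0.0185), and lost the call without TGFb2h replicate 1 (adjusted p = 0.0543), TGFb12h replicate 1 (0.0695) or TGFb12h replicate 2 (0.133). Maff, the small MAF gene, had 0.881 (SE 0.22, adjusted p = 0.0234), and lost it without TGFb12h replicate 1 (adjusted p = 0.163) or replicate 2 (0.0765). Psmb10, of the immunoproteasome, had -0.595 (SE 0.17, adjusted p = 0.0375), and lost it without any 1 of the 6 libraries (adjusted p = 0.0551 to 0.190). The other 2, named after their values were seen, were Uba6, a ubiquitin-activating enzyme gene, higher by a log2FC of 0.674 (SE 0.16, adjusted p = 0.0200), and Mafk, a small MAF gene, higher by 0.627 (SE 0.19, adjusted p = 0.0418).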

How the results depend on the processing

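Psmd8 at 12 h kept its direction and its call under all 15 alternatives, while Psme3 kept them under 13, Psmd12 under 9 and Psma2 under 9. The members' changes were mostly smaller than the 0.75 on the log2 scale of which 40.8% was recovered in simulated counts, so a missing call at this depth does not show that a gene did not change. The cause of the shifts listed here was not tested.

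The labels give the groups the same replicate numbers 1 and 2. Same-numbered libraries deviated together across genes (r = 0.702 for veh with TGFb2h, 0.273 for veh with TGFb12h and 0.392 for TGFb2h with TGFb12h), but nothing says that a number marks a shared culture or day, and there are only 2 pairs. With the replicate block, the common biological coefficient of variation fell from 0.148 to 0.0910 and the called members numbered 1 at 2 h, 18 at 12 h (17 higher) and 5 between 2 h and 12 h (4 higher), where 29.1%, 55.3% and 48.5% of all genes were called, and the called genes around the proteasome 9 at 2 h and 18 at 12 h. The members called higher at 12 h were then 39.5% of those tested, against 27.8% of all genes, where without the block they were 9.3% against 21.8%. The block also called Ngly1 (adjusted p = 0.0162) and Maff (adjusted p = 0.0145) at 2 h.

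Called members at 2 h numbered 1 (Psmd3) with DESeq2, with limma-voom, with at least 10 counts in every library and with no filter, where 18.9%, 15.2%, 14.9% and 10.5% of all genes were called. At 12 h they numbered 9 with DESeq2 (44.4% of all genes called) and 13 in a fit of only the 2 groups compared (49.3%), which left 3 called genes around the proteasome at 2 h. Leaving out 1 library in turn gave 0 to 4 called members at 2 h, 1 to 13 at 12 h and 1 to 3 between 2 h and 12 h, where 5.63% to 19.9%, 25.7% to 49.1% and 14.6% to 34.6% of all genes were called, and 2 to 6 and 5 to 13 called genes around the proteasome at 2 h and 12 h.

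With total counts in place of TMM factors, the log2 ratio of summed levels at 12 h was 0.0958 for all members, 0.106 for the alpha ring, 0.0207 for the beta ring, 0.266 for the lid and -0.156 for the chaperones, and that of the chaperones at 2 h was -0.139. By less than the spread between replicates, total counts moved the ATPases to 0.0261, the other base subunits to 0.179 and the activators to -0.0505 at 12 h, and all members to 0.0204 and the alpha ring to -0.0187 at 2 h. With upper-quartile factors the alpha ring gave 0.158 and the chaperones -0.105 at 12 h and -0.128 at 2 h. In an alternative chosen after seeing the data, each role was summed without its member of largest rise in CPM: the lid without Psmd8 then gave 0.273 at 12 h, the other roles moved by less than the spread between replicates, the activators without Psme3 to -0.03, and the ATPases without Psmc4 overlapped with vehicle.

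Over the 43 tested members, those above 0 numbered 25 at 2 h and 26 at 12 h with total counts and 25 and 28 with upper-quartile factors, against 32 and 33 with TMM. Among the genes described in full, no log2FC that changed sign was called. Of these genes, with total counts the sign changed at 2 h in Psme3 (-0.105), Psmb1 (-0.0773), Psmd6 (-0.104), Ubb (-0.0671) and Psmb10 (-0.00168), and at 12 h in Psmd6 (-0.0663), Pomp (-0.0304) and Ubb (-0.0805). With upper-quartile factors it changed in Psme3 (-0.0929), Psmb1 (-0.0659), Psmd6 (-0.0919) and Ubb (-0.0558) at 2 h and Psmd6 (-0.0147) and Ubb (-0.0295) at 12 h. Psme3 and Psmd6 at 2 h were -0.0056 and -0.00503 with DESeq2 size factors and -0.00546 and -0.00492 with DESeq2, and Psmb1 at 12 h was 0.00156 with no filter. Leaving out 1 library gave, at 2 h, -0.0724 to 0.0849 for Psme3, -0.0992 to 0.0485 for Psma6, -0.0067 to 0.0537 for Psmb1, -0.0616 to 0.0745 for Psmd6, -0.667 to 0.22 for Psmc3ip and -0.0335 to 0.12 for Ubb. At 12 h it gave -0.0946 to 0.0526 for Psma6, -0.0782 to 0.0512 for Psmb1, -0.00717 to 0.128 for Psmd6, -0.154 to 0.0535 for Psme4 and -0.15 to 0.201 for Ubb. Of the other values of single genes under the alternatives, 839 kept direction and side of the threshold, 50 lost the call and 34 gained it.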
